A study of Mus musculus with 7 samples.

Results

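The T cell receptor complex and the genes that mark and run T cells were followed in lung tissue of C57BL/6 mice by RNA sequencing. The group comprised 37 genes, picked by name for their roles (receptor chains, coreceptors, proximal signalling proteins, surface and costimulatory receptors, transcription factors), and each of the 37 had 1 row among the 28828 gene rows of the count table. Lung of mice with a knock out of SCGB3A2, the gene of a small secretoglobin made by airway secretory cells, gave 3 libraries (KO3, KO4 and KO5), and lung of wild type mice gave 4 (WT2, WT3, WT4 and WT6). The labels name no sex, age, litter, batch or treatment for either genotype, do not say which part of the gene the allele lacks or whether it is lost in every cell, and do not say whether each library is 1 mouse, so that p-values speak only of the spread among the libraries at hand, which may be technical. Totals ran from 13071262 to 16480006 counts per library. Values are given as CPM, the usual count scale set by library size after edgeR's TMM scaling.

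T cells recognise peptides on MHC molecules with a receptor made of variable alpha and beta chains, which cannot signal by themselves. The CD3 chains and CD247 (CD3 zeta) carry the signalling motifs, the coreceptors CD4 and CD8 bring the kinase LCK to the receptor, and ZAP70, LAT and LCP2 (SLP-76) pass the signal on. Helper cells carry CD4 and cytotoxic cells CD8, and FOXP3 marks regulatory cells. In lung, T cells sit in the tissue as resident and recirculating cells and gather with B cells in lymphoid clusters around airways and vessels after stimulation. In bulk tissue, fewer cells of a type and less RNA per cell cannot be told apart.

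The libraries carried the level of the targeted gene that their labels imply. Scgb3a2 had 1.28, 1.21 and 2.67 CPM in the knockout libraries, against 253, 266, 195 and 292 CPM in the wild type libraries (log2 fold change -7.20 ± 0.27 SE, adjusted p = 8.06e-07, edgeR). Across all genes WT6 and KO5 stood apart from the other 5 libraries on the leading principal component (37.5% of the variance), and values without them are given where they differ most. Lung identity was plain in every library, with the 6 epithelial markers Sftpc, Sftpb, Ager, Hopx, Scgb1a1 and Foxj1 summing to 27312, 24856 and 15898 CPM in KO3, KO4 and KO5, against 23475, 27217, 27334 and 18971 CPM in WT2, WT3, WT4 and WT6. KO5 and WT6 had the lowest epithelial sums, and KO5 is also the library with the highest values of most T cell genes. The part of tissue makeup in those values was not tested.

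T cell transcripts had higher knockout than wild type means for 32 of the 37 genes and lower means for 5. The edgeR quasi-likelihood test, adjusted over all 19832 genes tested (Benjamini-Hochberg), called 0 of the 34 members that passed the filter on low counts, while it called 7 genes in all (0.0353% of those tested). DESeq2 called 3 members, Cd4, Cd6 and Icos, among 47 genes (0.237%). At an unadjusted p under 0.05 edgeR found 18 of the 34, each with a positive log2 fold change, against 1.82% of all genes tested in that direction. The median log2 fold change (knockout over wild type) was 0.61 over these 34 members, with 30 positive and 4 negative values, and -0.01 over all genes tested, of which 48.0% were positive. The filter passed Ctla4 and Pdcd1 with fewer than 3 wild type libraries above its limit of 0.658 CPM. With no such filter all 37 members could be fitted, and their median was 0.61 with 32 positive values.

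Among the members, 10 (Cd3g, Trac, Cd4, Lat, Skap1, Cd6, Thy1, Icos, Bcl11b and Foxp3) had every knockout library above every wild type library, an arrangement found for 2.10% of all genes tested, and 0 had every knockout library below, beside 1.63% of all genes. KO5 held the highest of the 7 values for 30 of the 37 members and WT4 the lowest for 21, while KO5 was highest for 18.5% and WT4 lowest for 15.9% of all genes tested. Without KO5 the median over the 34 members was 0.40, and 7 had an unadjusted p under 0.05, beside 3.10% of all genes in the same fit. Without both WT6 and KO5 the median was 0.43, with 28 positive values and 8 members under 0.05, beside 3.36% of all genes.

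**Figure D1:**
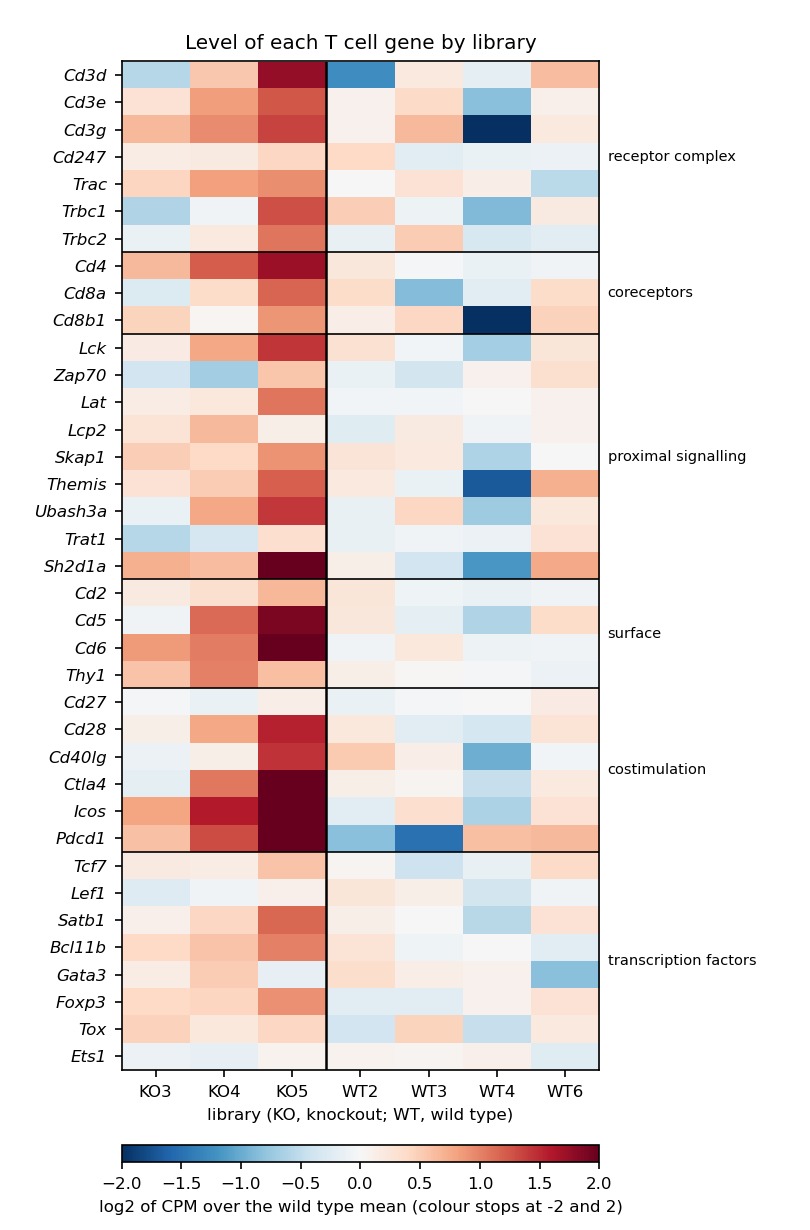
Level of each of the 37 T cell genes (rows, by role) in the 3 knockout (KO) and 4 wild type (WT) libraries (columns). Colour gives log2 of the CPM value over the wild type mean of that gene, and the colour scale stops at -2 and 2. KO5 is the reddest column, with the highest value for 30 of the 37 genes.

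All 7 receptor complex genes had a positive log2 fold change (median 0.74), 3 with an unadjusted p under 0.05, and 0 passed after adjustment in edgeR. Cd3d, Cd3e and Cd3g encode the CD3 delta, epsilon and gamma chains, and their genes lie together on chromosome 9 of GRCm38, the assembly also called mm10. Cd3g (44969572 to 44980431, minus strand) and Cd3d (44981786 to 44987339, plus strand) run away from each other across a gap of 1354 bases, and Cd3e (44998740 to 45009627, minus strand) lies 11.4 kb beyond Cd3d. The 250 bases upstream of each start of the divergent pair are shown because these neighbouring chains had the same direction of difference. They come from RefSeq (GRCm38.p6), read 5′ to 3′ on the gene's own strand. Capitals mark the motifs searched on both strands.
Cd3g, chr9:44980432-44980681, minus strand: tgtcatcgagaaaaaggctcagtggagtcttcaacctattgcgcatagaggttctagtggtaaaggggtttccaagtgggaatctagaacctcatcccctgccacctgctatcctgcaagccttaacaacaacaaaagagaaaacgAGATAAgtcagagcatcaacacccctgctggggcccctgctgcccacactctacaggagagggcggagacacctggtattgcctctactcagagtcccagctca
Cd3d, chr9:44981536-44981785, plus strand: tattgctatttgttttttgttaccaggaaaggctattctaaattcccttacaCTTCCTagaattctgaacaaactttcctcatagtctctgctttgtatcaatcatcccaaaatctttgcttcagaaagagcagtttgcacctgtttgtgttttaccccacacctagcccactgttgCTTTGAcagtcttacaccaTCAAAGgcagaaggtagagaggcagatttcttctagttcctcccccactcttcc
In these windows the Cd3g promoter held 1 GATA motif (AGATAA) and the Cd3d promoter held 2 TCF/LEF motifs (CTTTGA) and 1 ETS motif (AGGAAG). RefSeq promoters were found for 22 of the 37 members. In this 250-base window 10 of the 22 (45.5%) held the ETS letters, 5 (22.7%) the TCF/LEF letters and 2 (9.09%) the GATA letters, while 29.2%, 14% and 10.3% of 27025 genes did, in that order. RUNX letters (TGTGGT) were in 9.09% and 14.2%, the E-box CAGCTG in 9.09% and 12.8%, and the CRE letters TGACGTCA in 4.55% and 1.62% of members and of all genes. None of these motifs contains another, and a match describes letters, not a bound site.

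Cd3e had 2.56, 3.75 and 4.98 CPM in KO3, KO4 and KO5, against 2.23, 2.74, 1.18 and 2.25 CPM in WT2, WT3, WT4 and WT6. The means were 3.76 ± 1.21 CPM in knockout (SD, n = 3) and 2.10 ± 0.656 CPM in wild type lung (SD, n = 4). KO3 lay below WT3, so the groups overlapped, and the log2 fold change was 0.83 ± 0.31 (SE, edgeR adjusted p = 1.0) and 0.59 without KO5. Cd3g had 2.50, 3.05 and 4.04 CPM in the knockout libraries, against 1.68, 2.49, 0.369 and 1.82 CPM in the wild type libraries. Its groups did not overlap, though KO3 and WT3 differed by a few counts only (37 and 39 reads before scaling), and WT4 had 5 reads. Cd3d ranged from 0.675 to 3.39 CPM in knockout and from 0.421 to 1.54 CPM in wild type lung, with a log2 fold change of 0.88 ± 0.54 and, without KO5, 0.12. Cd247, the zeta chain with the most signalling motifs of the complex, had 4.63 ± 0.491 CPM in knockout and 3.89 ± 0.825 CPM in wild type lung (log2 fold change 0.25 ± 0.21, and 0.16 without KO5), the smallest fitted value of the 7 receptor genes.

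The constant regions Trac, Trbc1 and Trbc2 encode the parts of the alpha and beta chains that all clones share. Trac had 3.44, 4.51 and 4.84 CPM in KO3, KO4 and KO5, against 2.53, 3.12, 2.81 and 1.75 CPM in WT2, WT3, WT4 and WT6. Every knockout library lay above every wild type library, with means of 4.26 ± 0.730 and 2.55 ± 0.586 CPM, and the log2 fold change was 0.74 ± 0.24 (exact permutation p = 0.0286, edgeR adjusted p = 1.0). Trbc1 had 1.35, 1.97 and 5.05 CPM in the knockout libraries, against 2.89, 1.91, 1.11 and 2.32 CPM in the wild type libraries. Trbc2 had 2.43, 3.05 and 5.63 CPM in the knockout libraries, against 2.41, 3.82, 2.14 and 2.32 CPM in the wild type libraries. For both beta regions only KO5 exceeded the wild type range. Without KO5 the log2 fold change was -0.31 for Trbc1 and 0.04 for Trbc2.

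Values of Trbc1 and Trbc2 (chromosome 6, 41538218 to 41539881 and 41546730 to 41548352, plus strand) may be uncertain one by one, since their leading exons are nearly the same. Their leading exons, 375 bases each, had 374 identical bases (99.7%) and a longest identical run of 259 bases in GENCODE M21. The rest of their merged exons, which span 749 bases in Trbc1 and 692 bases in Trbc2, was not compared and may tell reads apart. The 120 bases around the position that differs in the leading exons are shown, with that base in capitals.
Trbc1, chr6:41538417-41538536, plus strand: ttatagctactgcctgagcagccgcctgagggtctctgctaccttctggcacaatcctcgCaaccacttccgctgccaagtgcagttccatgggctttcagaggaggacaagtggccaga
Trbc2, chr6:41546929-41547048, plus strand: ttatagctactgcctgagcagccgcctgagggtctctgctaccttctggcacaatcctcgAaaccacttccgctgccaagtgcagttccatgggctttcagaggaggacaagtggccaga
Their sum is free of this split. It was 3.78, 5.02 and 10.7 CPM in the knockout libraries, against 5.29, 5.74, 3.25 and 4.63 CPM in the wild type libraries. KO3 and KO4 lay inside the wild type range.

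The summed level of the 7 receptor genes was 17.3, 22.2 and 33.1 CPM in KO3, KO4 and KO5, against 17.3, 18.5, 12.0 and 15.6 CPM in WT2, WT3, WT4 and WT6. KO4 and KO5 exceeded every wild type library, and KO3 equalled WT2 to the precision given and lay below WT3. Per kb of merged exon (GENCODE M21), the constant regions had mean levels of 3.73 to 5.35 CPM in knockout and 2.73 to 3.86 CPM in wild type lung, above the 0.869 to 1.02 CPM in knockout and 0.487 to 0.730 CPM in wild type lung of the 3 CD3 chains and Cd247. The 15 rows of receptor variable segments in the table were thinly covered, with 28, 31 and 53 reads in KO3, KO4 and KO5, against 26, 24, 17 and 32 in WT2, WT3, WT4 and WT6. Those reads fell on 10, 10 and 14 segments in the knockout libraries, against 12, 13, 11 and 13 in the wild type libraries, so the number of segments seen overlapped between the genotypes.

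The coreceptors differed in how far apart the genotypes lay. Cd4 had 6.01, 8.83 and 12.5 CPM in KO3, KO4 and KO5, against 4.45, 3.70, 3.47 and 3.65 CPM in WT2, WT3, WT4 and WT6. Every knockout library was above every wild type library, and the wild type libraries lay close together (3.82 ± 0.433 CPM, n = 4, against 9.11 ± 3.25 CPM in knockout lung, n = 3). Cd4 (chromosome 6, 124864692 to 124888221, minus strand) ranked highest of all members by p, with a log2 fold change of 1.25 ± 0.24 (SE) and an edgeR adjusted p of 0.337, which did not pass. Exact permutation p-values, two-sided on log2 CPM, are given beside the edgeR values, and for Cd4 this was 0.0286, the lowest reachable with 3 libraries against 4.

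The call of Cd4 depended on the fit, with an adjusted p of 0.00244 in DESeq2, 0.0269 in edgeR with a term for WT6 and KO5 (29 genes called, 0.146%) and 0.0184 without KO3 (41 genes called, 0.202%). Without KO5 its log2 fold change was 0.96, and without both WT6 and KO5 it was 0.94, and neither passed.

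Cd8a, the alpha chain of CD8, had 1.62, 2.54 and 4.40 CPM in the knockout libraries, against 2.53, 1.08, 1.70 and 2.53 CPM in the wild type libraries. Its groups overlapped, and only KO5 stood clear of the wild type values (log2 fold change 0.54 ± 0.38, exact permutation p = 0.400, edgeR adjusted p = 1.0), and without KO5 its log2 fold change was 0.09. Cd8b1, the beta chain, ranged from 1.52 to 2.74 CPM in knockout and from 0.296 to 2.04 CPM in wild type lung, where the lowest value was the 4 reads of WT4, and its log2 fold change was 0.48 ± 0.47, and 0.25 without KO5. Reads of Cd4 per read of Cd8a, a ratio in which library scaling cancels, were 3.71, 3.48 and 2.84 in KO3, KO4 and KO5, against 1.76, 3.41, 2.04 and 1.44 in WT2, WT3, WT4 and WT6. WT3 lay inside the knockout range, so this ratio did not separate the genotypes.

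**Figure D2:**
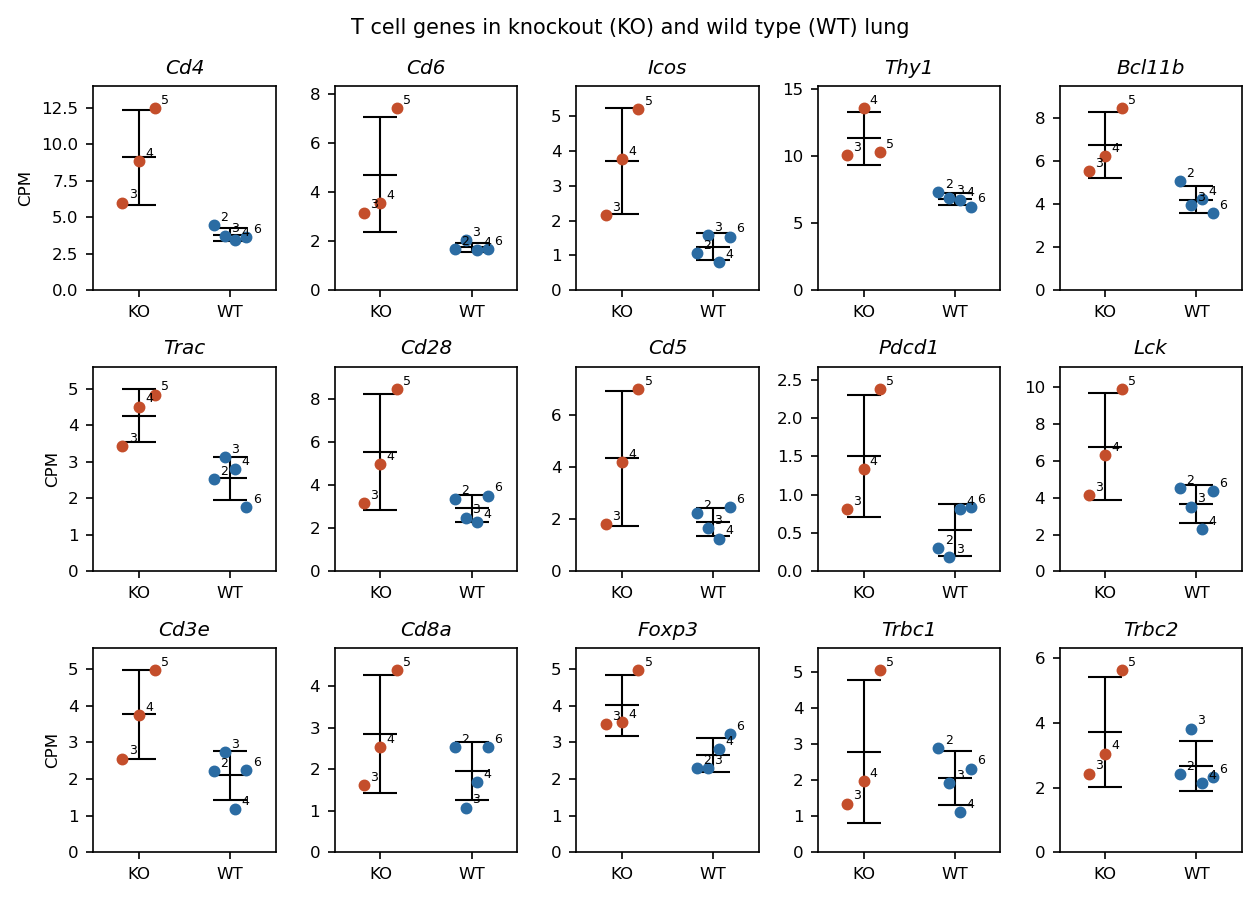
CPM of 15 T cell genes in knockout (KO, left) and wild type (WT, right) lung. Points are libraries with their number, and bars give the mean and SD (n = 3 and n = 4). Cd4, Cd6, Icos, Thy1, Bcl11b, Trac and Foxp3 show all 3 knockout points above the 4 wild type points, while Cd8a, Trbc1 and Trbc2 overlap.

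Of the 9 proximal signalling genes 7 were tested, 6 with a positive value, 3 with an unadjusted p under 0.05 and 0 called, and the median log2 fold change was 0.61. Lck, the kinase that CD4 and CD8 bind, had 4.12, 6.29 and 9.89 CPM in KO3, KO4 and KO5, against 4.51, 3.51, 2.29 and 4.35 CPM in WT2, WT3, WT4 and WT6. KO3 lay below WT2 and WT6, and the log2 fold change was 0.88 ± 0.31 (exact permutation p = 0.114, edgeR adjusted p = 1.0) and 0.51 without KO5. Zap70, the kinase that binds the phosphorylated CD3 chains, had 2.97, 2.41 and 5.70 CPM in the knockout libraries, against 3.55, 3.0, 4.14 and 4.84 CPM in the wild type libraries. KO4 held its lowest and KO5 its highest value, and the log2 fold change was -0.07 ± 0.30, with values of -0.52 to 0.16 when each library was left out in turn.

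The scaffolds Lat and Lcp2, on which signalling complexes assemble, averaged 4.70 ± 1.81 and 15.7 ± 3.04 CPM in knockout lung, against 3.24 ± 0.148 and 12.1 ± 1.48 CPM in wild type lung. All knockout values of Lat exceeded all wild type values, although those of KO3 and KO4 (3.58 and 3.75 CPM) were within 0.4 CPM of WT6 (3.44 CPM). Its log2 fold change was 0.54 ± 0.25, and 0.18 without KO5. The adaptor Skap1, which links the receptor to integrins, also had groups that did not overlap, at 4.19 to 5.92 CPM in knockout and 2.07 to 3.79 CPM in wild type lung. Themis, needed for thymocyte selection, and Ubash3a, which dampens receptor signalling, overlapped, with log2 fold changes of 0.71 ± 0.42 and 0.80 ± 0.38, and 0.40 and 0.39 without KO5. The adaptors Trat1 and Sh2d1a (SAP) were too low to be tested. Trat1 had 4 to 7 reads in every knockout and 5 to 7 in every wild type library, and Sh2d1a had 14 reads in KO5 against 4 in KO3, 4 in KO4 and 1 to 4 in wild type libraries.

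Of the surface receptors that tune adhesion and signal strength, all 4 had a positive log2 fold change and an unadjusted p under 0.05, and 0 passed after adjustment in edgeR. Cd6, a scavenger-type receptor of T cells, had 3.17, 3.56 and 7.44 CPM in KO3, KO4 and KO5, against 1.68, 2.04, 1.63 and 1.68 CPM in WT2, WT3, WT4 and WT6. The groups did not overlap, and the log2 fold change was 1.41 ± 0.31 (exact permutation p = 0.0286, adjusted p = 0.503 in edgeR and 0.0289 in DESeq2). Without KO5 its log2 fold change was 0.94. Its neighbour Cd5, an inhibitory receptor also found on a B cell subset and 50.3 kb away on chromosome 19, had 1.82, 4.19 and 7.0 CPM in the knockout libraries, against 2.23, 1.66, 1.26 and 2.46 CPM in the wild type libraries. KO3 lay within the wild type range for Cd5, unlike Cd6, and the log2 fold change was 1.18 ± 0.40 (edgeR adjusted p = 1.0). Without KO5 it was 0.67.

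Thy1, a glycoprotein of T cells that fibroblasts also carry, had 10.1, 13.6 and 10.3 CPM in the knockout libraries, against 7.34, 6.88, 6.72 and 6.25 CPM in the wild type libraries. The groups did not overlap, and KO4, not KO5, held the highest value. The log2 fold change was 0.73 ± 0.16 (exact permutation p = 0.0286, edgeR adjusted p = 0.527), and 0.80 without KO5. The 5 fibroblast markers Col1a1, Pdgfra, Tcf21, Inmt and Dcn had negative log2 fold changes, and summed to 1550 to 1601 CPM in knockout and 1750 to 2131 CPM in wild type lung. That gap was carried by Inmt, a methyltransferase of lung fibroblasts, since the other 4 summed to 851 to 964 CPM in knockout and 843 to 1069 CPM in wild type lung. The adhesion receptor Cd2 averaged 11.8 ± 2.07 CPM in knockout and 8.96 ± 1.14 CPM in wild type lung, a log2 fold change of 0.39 ± 0.17, and 0.25 without KO5.

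Of the 6 costimulatory and checkpoint receptors 5 were tested, 4 with a positive value and an unadjusted p under 0.05 and 1 slightly negative, and 0 passed after adjustment in edgeR. Icos and Pdcd1 had the 2 highest fitted values of all members tested. Icos, a costimulator of activated and follicular helper T cells, had 2.16, 3.75 and 5.20 CPM in KO3, KO4 and KO5, against 1.08, 1.59, 0.813 and 1.54 CPM in WT2, WT3, WT4 and WT6. Every knockout library exceeded every wild type library, and the log2 fold change was 1.54 ± 0.34 (exact permutation p = 0.0286, adjusted p = 0.526 in edgeR and 0.0325 in DESeq2). Without KO5 it was 1.23. Pdcd1 (PD-1), a checkpoint receptor of activated T cells, had 0.810, 1.33 and 2.38 CPM in the knockout libraries, against 0.301, 0.191, 0.813 and 0.842 CPM in the wild type libraries. KO3 lay just under WT4 and WT6, and the log2 fold change of 1.5 ± 0.53 (edgeR adjusted p = 1.0) rests on 3 to 12 wild type reads per library and was 1.03 without KO5. Ctla4, the inhibitory counterpart of CD28, had 8, 20 and 40 reads in KO3, KO4 and KO5, against 11, 10, 6 and 10 in WT2, WT3, WT4 and WT6. Its log2 fold change was 1.33 ± 0.50, and 0.57 without KO5.

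Cd28, the main costimulatory receptor, had 3.17, 4.96 and 8.45 CPM in the knockout libraries, against 3.37, 2.49, 2.29 and 3.51 CPM in the wild type libraries. KO3 lay within the wild type range, and the log2 fold change was 0.92 ± 0.31 (edgeR adjusted p = 1.0) and 0.48 without KO5. Cd28, Ctla4 and Icos lie side by side on the plus strand of chromosome 1, with gaps of 114 kb and 62.1 kb between them (60716800 to 61000320 for the cluster). Within this cluster KO3 exceeded all wild type libraries for Icos alone. Cd27, a costimulator of naive and memory cells, was level at 3.8 ± 0.355 CPM in knockout and 3.81 ± 0.337 CPM in wild type lung. Cd40lg, the helper signal to B cells, had 4, 5 and 11 reads in the knockout libraries, against 7, 5, 2 and 4 in the wild type libraries, and was not tested.

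**Figure D3:**
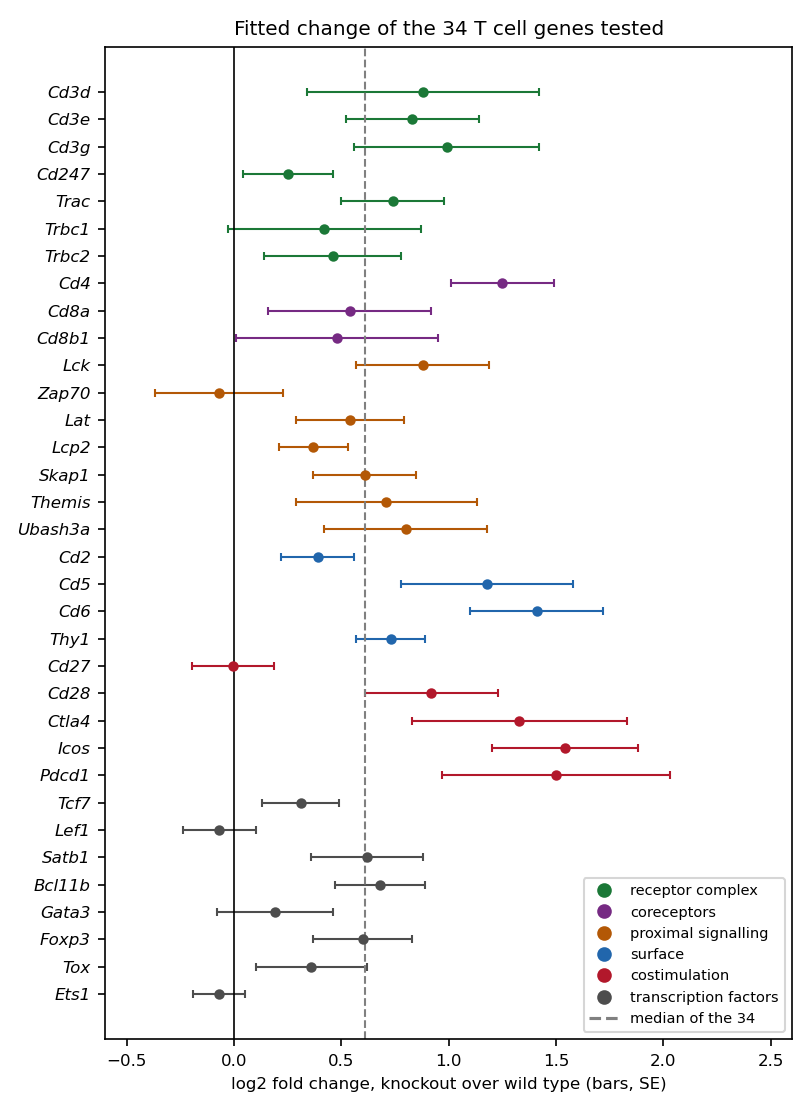
Fitted log2 fold change (knockout over wild type) of the 34 T cell genes tested, by role. Points are edgeR estimates and bars their SE, and the dashed line is the median of 0.61. Icos, Pdcd1 and Cd6 lie farthest to the right, and Zap70, Cd27, Lef1 and Ets1 lie at or just under 0.

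Of the 8 transcription factors 6 had a positive and 2 a negative log2 fold change (median 0.34), 3 had an unadjusted p under 0.05, and 0 passed after adjustment in edgeR. Foxp3, the factor of regulatory T cells, had 3.51, 3.56 and 4.98 CPM in KO3, KO4 and KO5, against 2.29, 2.29, 2.81 and 3.23 CPM in WT2, WT3, WT4 and WT6. Every knockout library lay above every wild type library, KO3 and WT6 by a small margin, and the log2 fold change was 0.60 ± 0.23 (exact permutation p = 0.0571, edgeR adjusted p = 1.0). Reads of Foxp3 per read of Cd4 were 0.58, 0.40 and 0.40 in the knockout libraries, against 0.51, 0.62, 0.81 and 0.88 in the wild type libraries. Only KO3 overlapped the wild type range of this ratio.

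Bcl11b, which fixes T cell identity, had 5.53, 6.23 and 8.45 CPM in the knockout libraries, against 5.05, 3.95, 4.21 and 3.58 CPM in the wild type libraries. Its groups did not overlap (log2 fold change 0.68 ± 0.21, exact permutation p = 0.0286, edgeR adjusted p = 1.0). Satb1, a chromatin organiser of thymocytes and T cells, ranged from 21.4 to 44.2 CPM in knockout and from 13.7 to 24.6 CPM in wild type lung, with a log2 fold change of 0.62 and, without KO5, 0.27. Tcf7 (TCF-1), a factor of naive and memory T cells, had a log2 fold change of 0.31 ± 0.18, and 0.17 without KO5. Its relative Lef1 had -0.07 ± 0.17, and ranged from 11.8 to 15.2 CPM in knockout and from 10.9 to 16.7 CPM in wild type lung. Gata3, the factor of type 2 helper cells and innate lymphoid cells, had 0.19 ± 0.27 (0.34 without KO5), and Tox, a factor of thymocytes and exhausted T cells, 0.36 ± 0.26. Ets1, which endothelium and B cells also use, had 273 ± 24.2 CPM in knockout and 286 ± 30.5 CPM in wild type lung, a log2 fold change of -0.07 ± 0.12. The 6 endothelial markers Pecam1, Cdh5, Kdr, Tek, Cldn5 and Emcn summed to 2197 to 2882 CPM in knockout and 2478 to 3107 CPM in wild type lung.

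Other genes of the pathway were taken as lists. Of 32 genes that carry the receptor signal onward or limit it, 31 were tested, 0 passed in edgeR, 27 had a positive and 4 a negative log2 fold change, and the median was 0.20. The phosphatase gene Ptpn22, a brake on LCK, had 0.88 ± 0.23 and the adaptor Sla2 1.27 ± 0.39, with edgeR adjusted p of 1.0 for each. Of 13 homing and residence genes 11 had positive values (median 0.31). Among them were the chemokine receptors Ccr6 (2.64 ± 0.82, and 1.61 without KO5) and Ccr4 (1.19 ± 0.40) and the survival receptor Il7r (0.43 ± 0.16). Ccr4 had 0.319 to 0.491 CPM in wild type libraries, all under the filter's limit of 0.658 CPM. It passed the filter only through the knockout libraries, at 0.699 to 1.37 CPM. Ccr6, which B cells also carry, had 8.38 CPM in KO5 and 0.675 CPM in KO3. Of the helper cell factors and cytokines 10 were tested, 7 with a positive value (median 0.20), and Irf4, a factor that plasma cells share, had 1.01 ± 0.35, and 0.45 without KO5. The 14 regulatory and checkpoint genes beyond the members had a median of 0.21 and 12 positive values, and the inhibitory receptor Btla, which B cells also carry, had 0.92 ± 0.37, and 0.40 without KO5. The 6 tested costimulatory ligands of presenting cells had a median of 0.02. With all libraries and genotype alone, 0 of the 74 tested genes in these 5 lists passed in edgeR or DESeq2. An unadjusted p under 0.05 in edgeR was found for 10, all with positive values, beside 1.82% of all genes tested in that direction. They include Ccr4 and Sla2, with 5 to 8 and 5 to 17 reads in wild type libraries. With a term for WT6 and KO5, Ptpn22 passed (edgeR adjusted p = 0.0431). Without KO5 the medians of the signalling, homing, helper and regulatory lists were 0.12, 0.19, 0.11 and 0.08.

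Markers of some other cells had the order of the summed receptor genes over the knockout libraries, but not over the wild type libraries. The 10 B cell markers, all with positive log2 fold changes (median 1.39, and 0.58 without KO5), summed to 44.1, 106 and 233 CPM in KO3, KO4 and KO5, against 57.3, 46.0, 29.9 and 67.7 CPM in WT2, WT3, WT4 and WT6. The 7 plasma cell genes (5 of 6 tested with positive values, median 2.72, and 1.48 without KO5) summed to 478, 998 and 1957 CPM in the knockout libraries, against 262 to 291 CPM in the wild type libraries. In both lists KO5 was the highest library and KO3 the lowest of the knockout libraries, which was also the order of the summed receptor genes. That rise from KO3 through KO4 to KO5 was found for 21.7% of all genes tested. Among wild type libraries the receptor sum was highest in WT3 (18.5 CPM) and lowest in WT4 (12.0 CPM). The plasma cell sum was lowest in WT3 (262 CPM) and highest in WT4 (291 CPM). The B cell sum was highest in WT6 and, like the receptor sum, lowest in WT4. The 6 proliferation genes summed to 80.0, 120 and 133 CPM in the knockout libraries, against 58.1 to 75.8 CPM in the wild type libraries. The lymphoid stroma list, with the T zone and follicle chemokines Ccl19, Ccl21a and Cxcl13, summed to 44.5, 61.6 and 75.7 CPM in the knockout libraries, against 38.3 to 49.5 CPM in the wild type libraries. In edgeR 0 of the genes in these 4 lists passed with all libraries and genotype alone. In DESeq2 Igkc, Igha, Jchain, Cd79a, Cxcl13 and Mki67 passed (adjusted p of 1.75e-07 to 0.0498). Without KO3, Igkc, Igha, Spib, Cxcl13 and Mki67 passed in edgeR (adjusted p of 4.13e-06 to 0.0117). The part of these cells in the T cell values was not tested.

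Markers of other lymphocytes gave mixed values, and 0 of them passed in edgeR. The 10 NK and cytotoxic genes had 3 positive and 7 negative log2 fold changes (median -0.15) and summed to 11.8 to 23.5 CPM in knockout and 9.24 to 27.6 CPM in wild type lung. Trdc, the constant region of the delta chain that marks gamma delta T cells, had 0.202, 0.508 and 0.722 CPM in the knockout libraries, against 1.32, 1.02, 0.813 and 0.632 CPM in the wild type libraries. KO5 and WT6 overlapped, and its log2 fold change was -1.0 ± 0.47 (edgeR adjusted p = 1.0). The 5 tested genes of the gamma delta list had 2 positive and 3 negative values, with a median of -0.01. Blk had the smallest p among them (edgeR unadjusted p = 0.0487). Its log2 fold change was 1.10 ± 0.48, and 0.27 without KO5. Trgc1, Trgc2 and Trgc4 of that list had no row among the counts. The 4 tested markers of group 2 innate lymphoid cells had a median of 0.19, with 3 positive values and 1 negative. The cytokine receptor Il9r had 1.56 ± 0.61, and 0.77 without KO5, and Il1rl1, the IL-33 receptor, had -0.41 ± 0.18.

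Of the defining genes of thymus, which lies close to the lungs, Rag2, Dntt and Foxn1 had 0 to 3 reads in each of the 7 libraries. Rag1, Ptcra and Psmb11 of the thymus list had no row among the counts. The 8 thymus genes with a row summed to 18.2 to 18.6 CPM in knockout and 17.1 to 20.3 CPM in wild type lung, most of it Ccl25. Dendritic cell (263 to 275 CPM in knockout and 242 to 270 CPM in wild type lung) and alveolar macrophage markers (548 to 718 CPM in knockout and 486 to 645 CPM in wild type lung) overlapped between genotypes. The mesothelium list summed to 163 CPM in KO5 and 152 CPM in WT6 and to 62.0 to 88.6 CPM in the other 5 libraries. WT6 had 15.6 CPM of receptor genes, inside the range of the other wild type libraries. The part of tissue makeup in this sum and in that of KO5 was not tested.

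**Figure D4:**
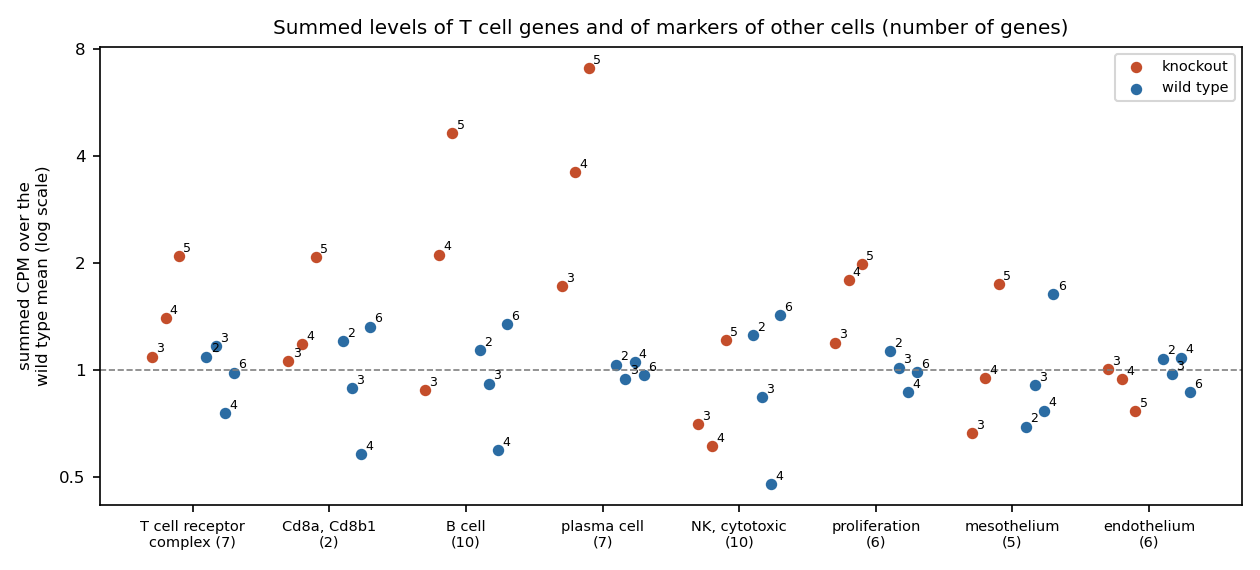
Summed CPM of the 7 receptor complex genes, of Cd8a with Cd8b1, and of markers of other cells, each divided by its wild type mean (log axis, number of genes in brackets). Points are knockout and wild type libraries with their number. KO5 is the highest point of the receptor complex, B cell, plasma cell and proliferation sets, and NK genes overlap between genotypes.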

How the data were processed

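The authors deposited raw gene counts (whole reads, unscaled) for 7 libraries of mouse lung, and per the labels' protocols RNA was extracted with Trizol and made into standard Illumina libraries. STAR, DESeq2 and the build mm10 are named in the submitters' processing notes. Counting program, annotation and strand mode were not given in the sources used here. Counts of overlapping, antisense or near-identical genes may share reads.

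From the counts, edgeR 4.0.16 in R 4.3.3 was run with its filter on low counts (19832 of 28828 rows kept), TMM scaling and the quasi-likelihood test (robust option) on genotype alone. Tests were two-sided, and edgeR and DESeq2 p-values were adjusted by Benjamini-Hochberg over all genes tested, with 0.05 as the threshold. Log2 fold changes are knockout over wild type, and their SE is the fold change divided by the root of the F statistic. Log2 CPM for permutation tests used a prior count of 2. Alternatives were RLE size factors, library totals, no filter, DESeq2 1.42.0, each library left out, WT6 and KO5 left out or fitted with a term, and a block on the title numbers. The procedure was also run on simulated counts drawn independently for each library. Such counts lack the axis on which WT6 and KO5 stood apart, so they do not check the fits against it.

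A count of 0 allows up to 3 counts, 0.222 CPM in the library with the highest limit, and such limits cover counting error only. The closest pair of libraries had a chi-square over its degrees of freedom of 4.67, so each was counted once. Positions came from GENCODE M21, matched by symbol for all 37 members, and promoters from RefSeq (GRCm38.p6), taking the entry listed first for each gene. The members and 19 further gene lists were chosen with earlier results of these data known. Genes given in full were Cd3e, Cd4, Cd8a, Trac, Trbc1, Trbc2, Foxp3 and the 10 members with the smallest p. Other members are given by range or mean, and further genes by smallest p within their list. Cd3g, Zap70, Ctla4, Trdc and the ratio of Foxp3 to Cd4 were given per library after their values were seen.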

Additional observations from a re-analysis of the deposited data

Results flagged for a closer look

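In 6 of the 37 T cell genes, 1 wild type library lay apart from the other 3 by Dixon's rule. Its gap to the nearest exceeded 0.829 of the range of the 4 libraries (limit at 95%), which does not weigh counting error. Chance alone flags about 5% of such groups. WT2 was high for Cd247, with 5.11 CPM against 3.31 to 3.58 CPM in the others, and for Cd2, with 10.6 CPM against 8.2 to 8.56 CPM. WT3 was high for Trbc2, with 3.82 CPM against 2.14 to 2.41 CPM. It was also high for Cd6, with 2.04 CPM against 1.63 to 1.68 CPM, though these were 32 reads against 22 to 28. WT6 was high for Trat1, with 0.491 CPM against 0.361 to 0.382 CPM, though these were only 7 reads against 5 to 6. It was low for Ets1, with 241 CPM against 297 to 307 CPM. The 3 knockout libraries were too few for this check.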

How the results depend on the processing

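Under all 14 alternatives the median log2 fold change of the members (0.61) moved by less than the spread between libraries (0.31), though by over 1.5 times without KO5, and the number with a positive value (30 of 34) stayed within 1.5 times. With each library left out in turn they ranged from 0.40 (without KO5) to 0.80 (without KO3) and from 29 to 33. The count of all genes called (7) was 14 without both WT6 and KO5, 29 with a term for this pair and 47 with DESeq2, and 3 to 41 with 1 library left out (3 without WT2, WT3 or WT4, 41 without KO3). The count of members called (0) was 1 with the term for WT6 and KO5, 3 with DESeq2 and 0 to 1 with 1 library left out, where Cd4 passed without KO3.

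Numbers 3 and 4 occur in both genotypes. In a fit with a replicate block on the title numbers, KO5, WT2 and WT6 each had a number of their own. The genotype difference in that fit therefore rested on KO3, KO4, WT3 and WT4 alone. It called 140 genes and 2 members, Cd4 and Thy1, so these calls do not draw on all libraries. Of the 154 tested genes of the other lists 16 were called, among them Ptpn22, Ccr6, Irf4, Cxcr5 and Btla. The rest were markers of B cells, plasma cells, lymphoid stroma and proliferation, such as Cd79a, Igha, Cxcl13 and Mki67. The deviations of same-numbered libraries correlated at 0.24 and 0.20 and those of KO3 with WT4 and KO4 with WT3 at 0.24 and 0.22, so the numbers are not shown to pair the libraries.

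Of the 34 members, 28 kept their direction under every alternative. Trbc1 was -0.26 and Trbc2 -0.03 without both WT6 and KO5, Trbc2 was -0.10 with the replicate block, and Cd27 was 0.01 with library totals only. With 1 library left out, Trbc1 ranged from -0.31 to 0.75, Zap70 from -0.52 to 0.16, Cd27 from -0.07 to 0.06, Lef1 from -0.18 to 0.02 and Gata3 from -0.0036 to 0.34. The cause of these shifts was not tested. Depth limits Trat1, Sh2d1a, Cd40lg, Ctla4 and Pdcd1, which had fewer than 15 reads in most libraries.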

Other observations

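Ratios between some T cell genes were taken within libraries, and most overlapped between the genotypes. Lef1 reads per Cd3e read were 4.61, 3.58 and 3.04 in KO3, KO4 and KO5, against 7.49, 5.60, 9.25 and 6.03 in WT2, WT3, WT4 and WT6, so that every knockout ratio lay below every wild type ratio. Zap70 reads per Lck read were 0.72, 0.38 and 0.58 in the knockout libraries, against 0.79, 0.85, 1.81 and 1.11 in the wild type libraries, again without overlap. These ratios were chosen after the values were seen and carry no test. Each set a gene with a log2 fold change of -0.07 over one with 0.83 (Cd3e) or 0.88 (Lck), a choice that favours separation. WT4 had only 16 reads of Cd3e. The share of gene pairs over all genes that separate in this way was not counted. Ratios of Icos to Cd28, Ctla4 to Cd28, Cd4 to Cd3e and Foxp3 to Cd3e, taken in the same way, overlapped between genotypes. So did those of Cd4 to Cd8a and Foxp3 to Cd4 above. Lef1 and Zap70 are also made by cells other than T cells, and such ratios do not show which gene changed.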
